A study of Mus musculus with 9 samples.

Results

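Krüppel-like factors are zinc finger transcription factors, and 9 of them (Klf2, Klf4, Klf5, Klf6, Klf7, Klf9, Klf10, Klf13 and Klf15) were followed by their gene symbols in the heart count table. The table holds 54532 gene identifiers and 17 genes of this family, so 9 of 17 family genes are described as members and the other 8 only as a setting. RNA of heart tissue was sequenced from 3 mice in each of 3 groups, all wild-type male C57BL/6J mice of 8 to 10 weeks. MIRI mice underwent myocardial ischemia/reperfusion injury, in which the left anterior descending coronary artery was tied for 30 min and released for 24 h, and received saline. GXNI mice had the same operation and received Guanxinning injection, a herbal preparation of Danshen and Chuanxiong, at 9 mL/kg through the tail vein within 10 min of ischemia. In sham mice the chest was opened and the suture was passed without being tied. The hour of the day at which hearts were taken is not given in the sources used here.

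The factors bind CACCC and GC-rich elements through the same zinc finger domain and differ in the rest of the protein, so that some activate and others repress. KLF2 and KLF4 are known from endothelium, where blood flow raises them through the MEK5, ERK5 and MEF2 cascade and they favour an anti-thrombotic and anti-inflammatory state. KLF15 is known in heart as a regulator of amino acid and lipid metabolism and of the rhythm of the potassium current subunit Kcnip2. KLF9 and KLF15 are known as genes that glucocorticoids raise, KLF10 as an early gene of TGF-beta, and KLF5 and KLF6 as factors of injured vessel and tissue.

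Total counts per library ran from 17119454 to 22811295, and mitochondrial genes took 23% to 29.8% of them. The sample labels give cardiomyocytes as the cell type, but the libraries were of whole tissue by their genes. Summed normalized counts scaled to the library total (CPM) of marker lists were 26550 to 42890 for 8 cardiomyocyte genes, 701 to 1307 for 9 endothelial genes, 509 to 1210 for 7 fibroblast genes and 375 to 657 for 7 macrophage genes. A change in such tissue cannot tell fewer cells of a type from less RNA per cell. Nothing in the labels says more of the 3 mice of a group than a number, so the tests measure the spread between these 9 libraries.

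Before the results, 2 libraries need to be named. A refit of the counts showed that the comparison tables issued with the paper place MIRI 2 among the GXNI mice and GXNI 3 among the MIRI mice, the reverse of their deposited labels. By rank correlation over 15207 genes, the library labelled MIRI 2 was nearest to GXNI 1, and the library labelled GXNI 3 was nearest to MIRI 3. MIRI 1 and MIRI 3 were nearest to GXNI 3, but GXNI 2 was nearest to MIRI 1 and GXNI 1 to sham 1. The counts carry no identity of the mice, and which labels are right was not tested. Groups below follow the deposited labels, and most results that rest on these 2 libraries are also given with the labels exchanged or with both left out. The comparison of all 6 ischemia-reperfusion libraries with the 3 sham libraries is the same under either set of labels.

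The promoters of 7 of the 9 members were matched in RefSeq (GRCm38.p6), each as 250 bases before the RefSeq start of the gene. Some starts differ in the GENCODE M21 annotation, which gave the gene symbols. By that annotation the Klf7 window lies inside the gene, and the windows of Klf2 and Klf6 run past the start. The 4 that hold a match to an E-box, the element of clock proteins, or to a MEF2 box are printed because the clock and MEF2 genes are set beside the members below. Capitals mark CACGTG in Klf15, Klf6 and Klf4 and the MEF2 box in Klf2.

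Klf15, chr6:90462326-90462575, forward strand: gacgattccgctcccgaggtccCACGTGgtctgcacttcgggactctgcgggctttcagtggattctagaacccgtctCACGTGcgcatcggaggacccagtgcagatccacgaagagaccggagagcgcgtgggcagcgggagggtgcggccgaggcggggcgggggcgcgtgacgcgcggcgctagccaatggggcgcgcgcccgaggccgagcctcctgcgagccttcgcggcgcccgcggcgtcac
Klf6, chr13:5861239-5861488, forward strand: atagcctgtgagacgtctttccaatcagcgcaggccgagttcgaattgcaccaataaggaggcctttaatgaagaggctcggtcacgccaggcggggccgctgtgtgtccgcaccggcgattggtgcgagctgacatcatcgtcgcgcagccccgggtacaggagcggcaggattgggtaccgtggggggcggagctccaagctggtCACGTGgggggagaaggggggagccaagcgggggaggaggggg
Klf4, chr4:55532476-55532725, reverse strand: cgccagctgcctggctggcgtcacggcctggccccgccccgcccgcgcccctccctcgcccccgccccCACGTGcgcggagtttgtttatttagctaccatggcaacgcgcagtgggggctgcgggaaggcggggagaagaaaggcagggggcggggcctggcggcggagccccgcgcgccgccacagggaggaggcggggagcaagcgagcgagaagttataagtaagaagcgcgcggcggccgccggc
Klf2, chr8:72318812-72319061, forward strand: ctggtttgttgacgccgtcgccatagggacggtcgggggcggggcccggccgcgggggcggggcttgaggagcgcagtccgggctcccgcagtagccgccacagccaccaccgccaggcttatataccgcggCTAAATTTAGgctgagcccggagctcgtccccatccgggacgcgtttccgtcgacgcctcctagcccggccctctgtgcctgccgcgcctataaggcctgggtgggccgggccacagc

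Matches were sought on both strands. The E-box, CACGTG, begins 228 and 172 bases before the start of Klf15, 43 before that of Klf6 and 182 before that of Klf4, and 6.02% of 32851 RefSeq promoters of this length hold it. The MEF2 box was sought as CTANNNNTAG, begins 118 bases before the start of Klf2 and stands in 3.2% of all promoters. The glucocorticoid response element, sought as GNACANNNTGTNC, and the cAMP response element, TGACGTCA, had no match in the 7 promoters, and 0.387% and 1.55% of all promoters hold them. The GC box, GGGCGG, to which the family itself binds, was in 6 of the 7, all but Klf9, against 32.7% of all promoters. The CACCC box, CCACCC, the family's other element, was only in those of Klf2, Klf7 and Klf13, against 28.1% of all promoters. These windows were GC-rich, at 59.2% to 74% against a median of 52.4%, and a match is a description of letters, not of a site in use.

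In sham hearts the members ranged from 0.04 to 34.4 CPM per kilobase of exons. Klf9, which lies downstream of glucocorticoid and thyroid hormone, was the highest, at 34.4 ± 7.9 CPM per kilobase (SD, n = 3), followed by Klf2 at 30.2 ± 7.9 and Klf15 at 29.95 ± 12.9, and these 3 overlapped. Klf6 followed at 16.8 ± 3.2 and Klf4 at 13.7 ± 0.3, which overlapped each other. Klf13 (7.6 ± 1.8), Klf10 (4.0 ± 0.9), Klf7 (2.4 ± 0.2) and Klf5 (0.04 ± 0.01) each lay below the one before without overlap. In MIRI and in GXNI hearts Klf6 had the highest mean, at 38.1 ± 16.9 and 36.9 ± 23.5 CPM per kilobase, and overlapped Klf2 in both. The rank in GXNI hearts rested on GXNI 3. With the labels exchanged Klf6 was again the highest in MIRI hearts, at 53.0 ± 10.1 CPM per kilobase, but at 22.1 ± 4.4 in GXNI hearts it came after Klf2 (38.5 ± 10.6), Klf15 (31.0 ± 6.2), Klf9 (30.02 ± 6.52) and Klf4 (25.6 ± 10.2).

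**Figure D1:**
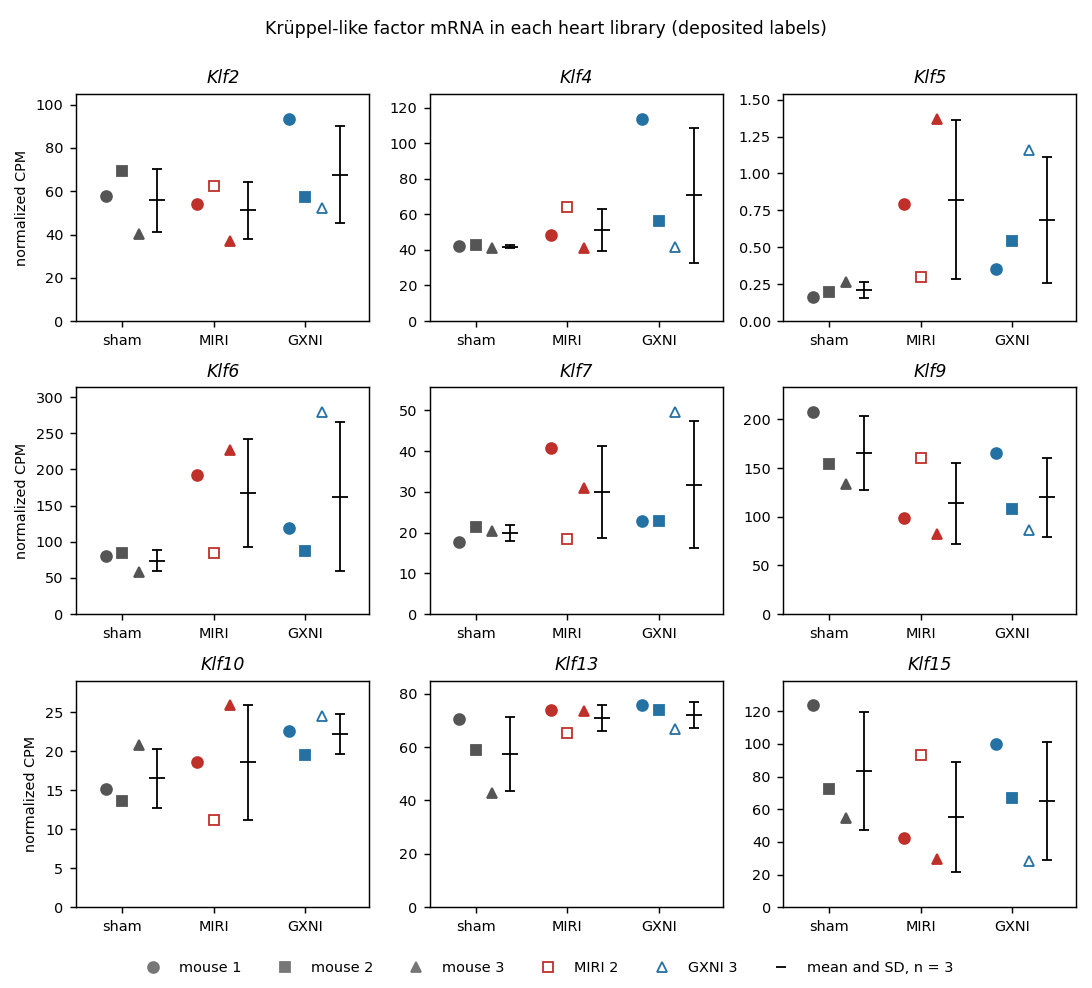
Normalized CPM (vertical axes, linear from 0) of the 9 members in each library, by deposited group. Open symbols are the libraries labelled MIRI 2 and GXNI 3, and the bars give the mean and SD of 3 mice. For Klf6, MIRI 1 and 3 and GXNI 3 lie between 192.1 and 279.8 CPM, while MIRI 2 lies at 83.9, inside the sham values of 57.6 to 84.1.

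The first comparison asks which members differed between hearts after ischemia and reperfusion, treated or not, and sham hearts. Klf5 and Klf6 had the largest differences, both higher, but neither was called. Calls required edgeR's quasi-likelihood test to give an unadjusted p no higher than 0.01 together with a change of 1.5-fold or more. By this rule 0 of the 9 members were called, beside 8.38% of the 15207 genes tested (5.52% higher and 2.85% lower), and 2 members had an unadjusted p under 0.05. DESeq2 at the same thresholds called 2 members higher, Klf5 and Klf6, beside 5.18% of 29344 genes. Its shares, here and below, are over all genes with any count, since the filter on low counts was not applied. Klf5 was the only member whose 6 ischemia-reperfusion libraries all lay beyond the 3 sham libraries, as 8.4% of all genes did in that direction.

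Klf5, a factor of smooth muscle growth and vascular remodelling, was close to absent in sham hearts, with 3, 4 and 5 counts. It had 17, 5 and 32 counts in the MIRI libraries and 7, 11 and 20 in the GXNI libraries, or 0.297 to 1.37 CPM against 0.161 to 0.266 in sham. MIRI 3, GXNI 3 and MIRI 1 were the highest and MIRI 2 was level with sham 3 in counts. The log2 fold change was 1.83 ± 0.59 (SE), with an adjusted p of 0.1025 in edgeR with Benjamini-Hochberg adjustment over all genes tested. Klf5 passed the filter on low counts here and in GXNI against MIRI, through the libraries in which it is high.

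Klf6, a factor that is induced in injured tissue, had 79.7, 84.1 and 57.6 CPM in sham hearts. The MIRI libraries gave 192.1, 83.9 and 226.3 CPM and the GXNI libraries 119.0, 87.8 and 279.8 CPM. MIRI 2 alone of the 6 lay within the sham range, and GXNI 2 lay just above it. The log2 fold change was 1.16 ± 0.41 (SE), with an adjusted p of 0.112 in edgeR.

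Klf7, a factor known from neurons and adipose tissue, had 17.7, 21.4 and 20.4 CPM in sham, 40.7, 18.4 and 30.8 CPM in MIRI and 22.8, 22.9 and 49.6 CPM in GXNI hearts. Its 3 highest libraries, GXNI 3, MIRI 1 and MIRI 3, were also the 3 highest for Klf5 and Klf6. Its log2 fold change was 0.64 ± 0.30 (SE), with an adjusted p of 0.189 in edgeR. Exons of Klf7 overlap those of the antisense gene Gm13748, which had 1 to 22 counts beside 309 to 870 for Klf7, and whether counting used the strand is not given in the sources used here.

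The calls moved with single libraries. Without MIRI 2, edgeR called Klf5 (1.99) and Klf6 (1.29, both log2) higher, beside 9.67% of genes called higher. Without GXNI 1 it called 1 member, Klf5 (1.98), beside 9.57%, and without GXNI 2 again 1, Klf6 (1.29), beside 4.67%. With MIRI 2 and GXNI 3 both left out it called none, beside 6.6% of genes called higher and 3.24% lower, and the log2 fold changes were 1.86 for Klf5 and 1.09 for Klf6, just short of the call. Neutrophil markers were highest in MIRI 1, MIRI 3 and GXNI 3, as were Klf5, Klf6 and Klf7. Over 8 such genes the summed CPM was 29.0 to 55.8 in sham, 715.5, 26.8 and 643.7 in MIRI 1, 2 and 3, and 48.6, 218.8 and 679.6 in GXNI 1, 2 and 3, with none of the 8 genes at 0 in any library. GXNI 2 had more of these markers than GXNI 1 and more Klf5, at 0.542 against 0.350 CPM. It had less Klf6, at 87.8 against 119.0 CPM, and about as much Klf7. The part of neutrophil RNA in the Klf5, Klf6 and Klf7 values was not tested.

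Klf9 and Klf15 ran the other way among the ischemia-reperfusion libraries. Klf15 had 123.9, 72.4 and 54.5 CPM in sham, 42.5, 93.2 and 29.5 CPM in MIRI and 99.8, 66.9 and 28.0 CPM in GXNI hearts. MIRI 1, MIRI 3 and GXNI 3 lay under every sham library and the other 3 within the sham range. Its log2 fold change was -0.48 ± 0.44 (SE), with an adjusted p of 0.468 in edgeR, about the size of the SE and smaller than the spread between libraries.

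Klf9 had 207.8, 154.4 and 133.9 CPM in sham, 98.4, 160.4 and 82.4 CPM in MIRI and 164.9, 108.4 and 86.5 CPM in GXNI hearts. MIRI 1, MIRI 3, GXNI 2 and GXNI 3 lay under the sham range. Its log2 fold change was -0.50 ± 0.25 (SE), with an adjusted p of 0.2097 in edgeR. Summed cardiomyocyte markers were also lower in MIRI 1, MIRI 3, GXNI 2 and GXNI 3 (26550 to 30220 CPM) than in sham (38330 to 41070 CPM). GXNI 1 had 34390 and MIRI 2 42890 CPM. Most genes of this sum, though not all, were lower in MIRI 1, MIRI 3, GXNI 2 and GXNI 3. Myh6 had 6532 to 8193 CPM in these libraries against 14450 to 16460 in sham. Tnnt2, Tnni3, Pln, Myl2 and Ryr2 also lay under every sham library in each of them. Actc1 was higher in MIRI 3 (10360 CPM) and GXNI 3 (7500 CPM) than in sham (4118 to 5503 CPM). Actn2 had 1330 to 1471 CPM in MIRI 1, MIRI 3, GXNI 2 and GXNI 3 against 1286 to 1351 in sham. The part of cardiomyocyte RNA in the Klf9 and Klf15 values was not tested.

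**Figure D2:**
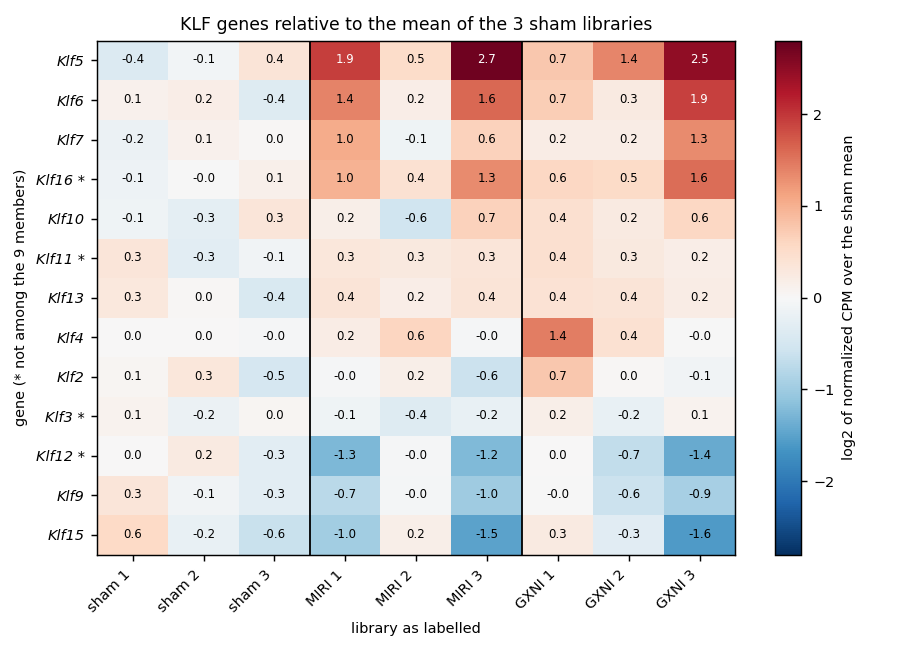
Log2 of each library's CPM over the mean of the 3 sham libraries, for 13 KLF genes that reached 1 CPM in some library; asterisks mark genes that are not members. Red is higher and blue lower, and MIRI 1, MIRI 3 and GXNI 3 show the strongest colours for Klf5, Klf6, Klf16, Klf12 and Klf15.

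Of 11 genes known as KLF15 targets in metabolism and excitation, 10 could be tested, 2 were called lower and 0 higher, with a median log2 fold change of -0.52 beside 0.01 over all genes. Of 8 cardiomyocyte markers none was called in this fit and the median was -0.39. The part of cardiomyocyte RNA in the list was not tested. Kcnip2, which encodes the subunit KChIP2 of the transient outward potassium channel, fell by 1.80 ± 0.32 (SE) on the log2 scale, with an adjusted p of 0.0573 in edgeR. It had 147.2 to 167.8 CPM in sham and 26.9 to 74.7 CPM in the 6 ischemia-reperfusion libraries, which did not overlap, although Klf15 itself did. Prodh, the proline dehydrogenase gene, fell by 0.98 ± 0.29. Slc2a4, which encodes the glucose transporter GLUT4, had -1.14 ± 0.40 and was not called, with an adjusted p of 0.112 in edgeR. With MIRI 2 and GXNI 3 both left out, 4 of the 10 were called lower.

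Of 8 genes of the glucocorticoid receptor list none was called. Nr3c1, the receptor gene, had a log2 fold change of -0.13 ± 0.18 (SE), and its target Sgk1, a kinase of ion transport, had 0.81 ± 0.26 with an adjusted p of 0.104 in edgeR. Mt2 (1.39), Dusp1 (0.97) and Per1 (0.64), as log2 fold changes, were higher too, and with Sgk1 had the lowest p of the list. The list's median was 0.36, but its targets did not all rise. Zbtb16 had 47.2 to 263.5 CPM in sham and 64.6 to 163.1 CPM in the ischemia-reperfusion libraries. Tsc22d3 had 64.7 to 181.5 CPM in sham and 63.0 to 136.3 CPM in the others. Sham 1 was the highest sham library for both, for Fkbp5 (212.2 CPM against 43.4 and 57.8), and for Klf9 and Klf15. With both doubtful libraries left out 2 of the 8 were called higher, and with MIRI 2 alone left out 3 were.

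Of 13 clock genes, 1 was called higher and 3 lower. Arntl, which encodes the positive clock factor BMAL1, rose by 1.99 ± 0.49 on the log2 scale, from 1.63 to 3.06 CPM in sham to 3.30 to 15.1 CPM in the 6 libraries. The output gene Tef fell by 1.25 ± 0.36, as did Nr1d2, which encodes the repressor REV-ERB-beta, by 0.97 ± 0.28. The third call was the output gene Dbp, named after its values were seen, which fell by 1.71 ± 0.50. Cry2, a cryptochrome repressor, had -0.58 ± 0.16, less than the 1.5-fold change required. Dbp was lowest in MIRI 1, MIRI 3 and GXNI 3, at 11.3 to 15.2 CPM, the libraries that were also lowest for Klf15. With both doubtful libraries left out 1 clock gene was called higher and 4 lower.

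Klf2 and Klf4, the endothelial pair, were not called. Klf2 had 57.8, 69.2 and 40.3 CPM in sham, 54.2, 62.5 and 36.9 CPM in MIRI and 93.6, 57.2 and 52.3 CPM in GXNI hearts, and the log2 fold change was 0.09 ± 0.27 (SE). The sign of the Klf2 value turned when sham 3 (-0.09) or GXNI 1 (-0.08) was left out. Klf4 had 42.3, 42.5 and 40.9 CPM in sham, 48.3, 64.0 and 40.8 CPM in MIRI and 113.8, 56.5 and 41.8 CPM in GXNI hearts. The 3 sham values lay close together and those of the other groups did not. The log2 fold change of Klf4 was 0.54 ± 0.31, with an adjusted p of 0.259 in edgeR, and 0.26 ± 0.16 without GXNI 1. GXNI 1 was the highest library for both genes and stood apart in mesothelial markers, with a summed CPM of 76.1 over 6 genes against 8.94 to 25.1 in the other 8 libraries. The part of that tissue in the Klf2 and Klf4 values was not tested.

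Upstream of this pair, none of 7 genes of the MEK5, ERK5 and MEF2 cascade was called, and their log2 fold changes had a median of -0.11. Mapk7, which encodes ERK5, was the nearest, at 0.94 ± 0.31 (SE) with an adjusted p of 0.107 in edgeR. It was called higher, as 1 of 7, when MIRI 2 and GXNI 3 were both left out.

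Downstream, 1 of 6 endothelial genes known as raised by KLF2 and KLF4 was called higher and none lower. Ptgis, prostacyclin synthase, rose by 0.80 ± 0.24 (SE) on the log2 scale. Nos3, endothelial nitric oxide synthase, had 20.3 to 26.7 CPM in sham and 26.5 to 70.3 CPM after ischemia and reperfusion, a log2 fold change of 0.93 ± 0.35 with an adjusted p of 0.123 in edgeR. Thbd, the anticoagulant receptor thrombomodulin, had 0.83 ± 0.42 with an adjusted p of 0.209 in edgeR.

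Of 6 endothelial genes known as lowered by KLF2 and KLF4, 1 was called higher and none lower. Sele, the adhesion molecule E-selectin, rose by 3.27 ± 0.87 (SE) on the log2 scale. The medians were 0.82 for the first list and 0.89 for the second, so both lay above 0 while Klf2 and Klf4 themselves were not called. Of 9 endothelial markers, 3 of which are also in the first list, none was called and the median was 0.36. Of 7 neutrophil markers tested none was called and the median was 3.05. The part of either cell type in these lists was not tested. With both doubtful libraries left out 2 of the first 6 and 3 of the second 6 were called higher.

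**Figure D3:**
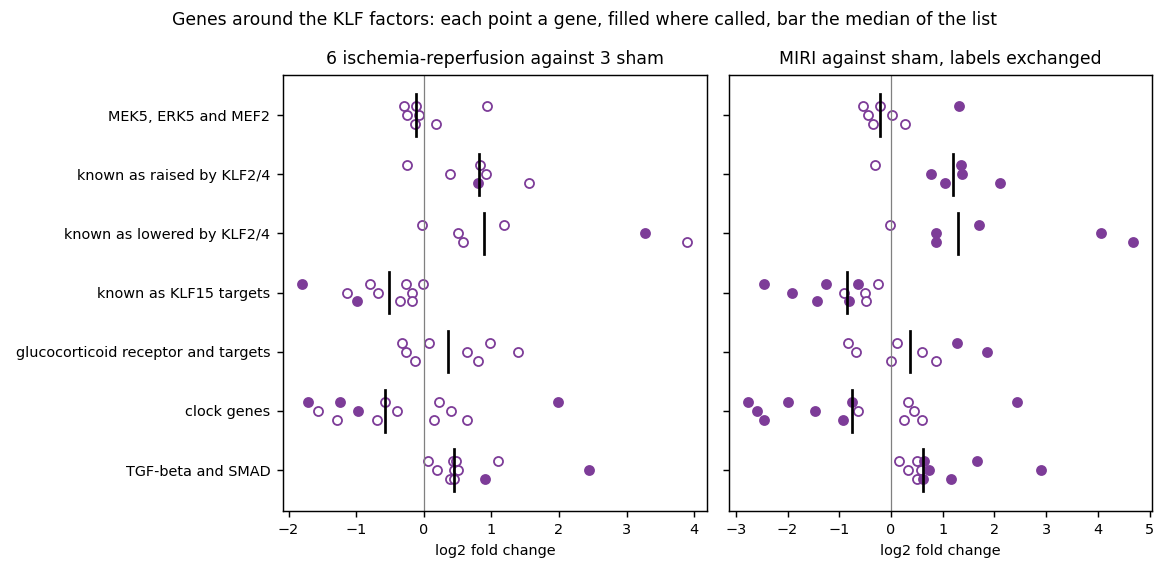
Log2 fold change (horizontal axes) of genes in 7 lists around the KLF factors, in all 6 ischemia-reperfusion libraries against sham and in MIRI against sham with the 2 labels exchanged. Each point is a gene, filled where called, and the vertical bar is the median of the list. In the left panel Kcnip2 lies farthest left at -1.80, and the filled point farthest right is Sele at 3.27.

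Klf10, known as TGF-beta inducible early gene, ranged from 13.6 to 20.8 CPM in sham, 11.2 to 25.9 CPM in MIRI and 19.6 to 24.6 CPM in GXNI hearts. Its log2 fold change over the 6 libraries was 0.31 ± 0.25 (SE), with an adjusted p of 0.417 in edgeR. Klf13, a GC-box factor known from T cells and heart development, ranged from 42.9 to 70.6 CPM in sham and from 65.2 to 75.9 CPM in the other 6 libraries. Sham 1, at 70.6 CPM, lay among those 6, and the log2 fold change was 0.32 ± 0.15 with an adjusted p of 0.182 in edgeR.

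Of 11 TGF-beta and SMAD genes, 2 were called higher and none lower, with a median of 0.45. Tgfb2, a TGF-beta ligand, rose by 2.44 ± 0.48 (SE) on the log2 scale, and Skil, a SMAD corepressor and an early target of the same ligands, by 0.91 ± 0.22. Of 9 genes around Klf5 and Klf6 in injury none was called. Cdkn1a, which encodes the cell cycle inhibitor p21, came nearest, at 1.90 ± 0.61 with an adjusted p of 0.102 in edgeR. With both doubtful libraries left out 2 of the 11 were called higher and none of the 9 was called.

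The second comparison, MIRI against sham, asks what the injury did without treatment. With the labels as deposited none of the 8 members tested was called, beside 8.97% of 14644 genes, and Klf5 did not pass the filter. Of the 8, 1 had an unadjusted p under 0.05. Klf6 had the lowest p, at a log2 fold change of 1.19 ± 0.37 (SE) and an adjusted p of 0.112 in edgeR. DESeq2 called Klf6 and no other member higher, beside 5.34% of 27901 genes, with an adjusted p of 0.0206. Without the filter on low counts edgeR called Klf5 (1.97) and Klf6 (1.18) higher, beside 5.75% of 27901 genes.

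This outcome rested on the library labelled MIRI 2. With MIRI 2 left out, 5 of 9 members were called, beside 30.2% of genes. Klf5 (2.36 ± 0.48), Klf6 (1.51 ± 0.18) and Klf7 (0.85 ± 0.15) rose, and Klf9 (-0.87 ± 0.20) and Klf15 (-1.21 ± 0.34) fell, all as log2 fold changes with SE. Klf5 entered this fit, the fit with exchanged labels and that of GXNI against sham without GXNI 1 only through the libraries in which it is high, so its call there adds nothing to the count of the other 4. With the 2 labels exchanged the same 5 were called beside 35.8% of 14853 genes, with 2.38, 1.66, 1.03, -0.89 and -1.33 in the same order, and adjusted p from 0.000179 for Klf6 to 0.00538 for Klf15 in edgeR. Each of the 5 then lay wholly outside its sham range. Of the 14644 genes tested with deposited labels, a set without Klf5, 30.4% did so upward and 31.8% downward. Klf2, Klf4, Klf10 and Klf13 were not called under any of these groupings.

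With the labels exchanged the lists moved further too. Of the KLF15 targets 6 of 10 were called lower, among them Kcnip2 at -2.45 ± 0.11 and Slc2a4 at -1.91 ± 0.12. Of the clock genes 7 of 13 were called lower and 1 higher. Of the endothelial genes known as raised by KLF2 and KLF4, 5 of 6 were called higher, with Nos3 at 1.37 ± 0.18 and Thbd at 1.35 ± 0.20. Of those known as lowered, 5 of 6 were called higher. Of the TGF-beta and SMAD genes 6 of 11 were called higher and none lower. Of the genes around Klf5 and Klf6 in injury, 4 of 9 were called higher and 1 lower. Of the glucocorticoid receptor list 2 of 8 were called higher, and of the MEK5, ERK5 and MEF2 cascade 1 of 7, with none lower in either. These counts stand beside 19.2% of all genes called higher and 16.6% called lower in that fit. Cell type markers moved in it as well. Of 8 cardiomyocyte markers 5 were called lower and 1 higher (median -0.69), of 7 fibroblast markers 4 lower, of 9 endothelial markers 3 higher (median 0.54) and of 7 neutrophil markers 7 higher (median 3.84). Their part in the lists was not tested.

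**Figure D4:**
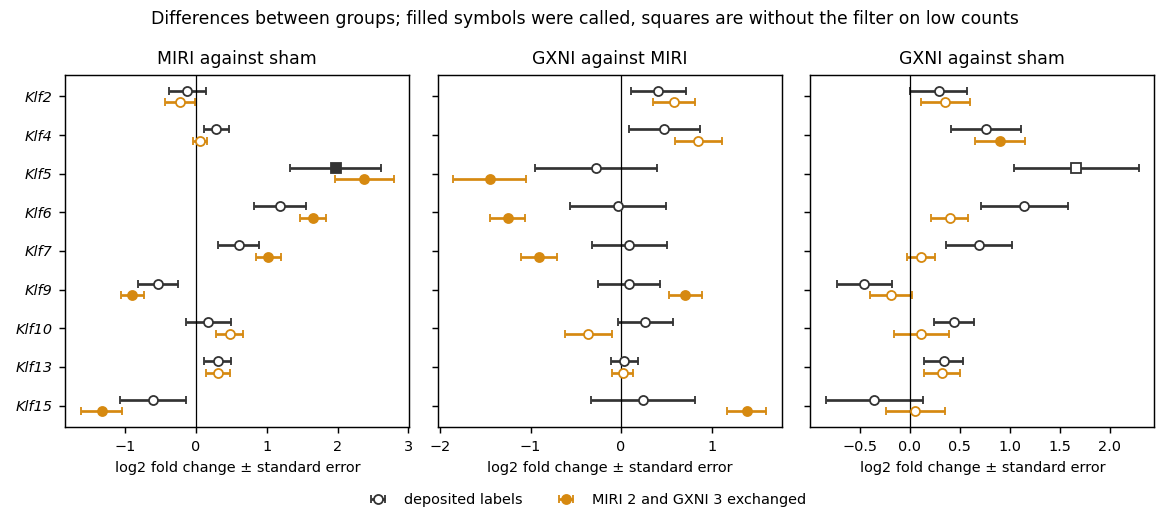
Log2 fold change with its standard error (horizontal axes) of each member in the 3 comparisons of groups, with deposited labels (dark) and with MIRI 2 and GXNI 3 exchanged (orange). Filled symbols were called, and for Klf5 with deposited labels a square gives the value without the filter where the filter removed it. With exchanged labels the filter removed Klf5 in GXNI against sham, and no point is drawn there. The 1 filled dark symbol is the Klf5 square in MIRI against sham, while 5 orange points are filled in each of the first 2 panels and 1, Klf4, in the third.

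The third comparison, GXNI against MIRI, asks what the treatment changed. With deposited labels none of the 9 members was called and none had an unadjusted p under 0.05 in edgeR or in DESeq2, and 0.0203% of 14762 genes were called, 3 in all. The log2 fold changes ran from -0.28 ± 0.67 (SE) for Klf5 to 0.48 ± 0.40 for Klf4. With these labels no gene of the 10 lists was called either.

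With both doubtful libraries left out, 2 MIRI and 2 GXNI libraries remained and 2 members were called, beside 4.99% of genes. Klf6 was lower in GXNI (-1.004 ± 0.220, adjusted p = 0.188 in edgeR) and Klf15 higher (1.22 ± 0.28, adjusted p = 0.188). With the labels exchanged, 5 of 9 were called, beside 19.2% of genes. Klf5 (-1.45 ± 0.40), Klf6 (-1.25 ± 0.20) and Klf7 (-0.91 ± 0.20) were lower in GXNI and Klf9 (0.71 ± 0.18) and Klf15 (1.39 ± 0.22) higher. Klf5 passed the filter of this fit through the libraries in which it is high, so its call adds nothing to the count of the others. Klf4 at 0.85 ± 0.26 was just short of the call, with an adjusted p of 0.0465 in edgeR. Of the lists, 5 of 10 KLF15 targets and 5 of 13 clock genes were then called higher, beside 8.56% of all genes, and none lower. Of the endothelial genes known as raised by KLF2 and KLF4, 3 of 6 were called lower, and of those known as lowered 2 of 6, beside 10.7% of all genes, and none higher. Of the genes around Klf5 and Klf6 in injury, 4 of 9 were called lower and 1 higher. Of the TGF-beta and SMAD genes 2 of 11 were called lower and none higher. The glucocorticoid receptor list had 2 of 8 called higher and 1 lower, and the MEK5, ERK5 and MEF2 cascade 1 of 7 lower and none higher. Neutrophil markers were called lower in 5 of 7 (median -3.03) and cardiomyocyte markers higher in 2 of 8 (median 0.45), and their part was not tested. With both libraries left out the higher calls were 1 KLF15 target, 2 clock genes and 1 of the glucocorticoid receptor list. The lower calls were then 2 and 1 of the endothelial lists, 2 of the injury list and 1 of the TGF-beta and SMAD list. This comparison and that of MIRI with sham share the MIRI libraries, so their values are not independent of each other.

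In GXNI against sham none of 8 members tested was called with deposited labels, beside 4.21% of 14695 genes, and 1 had an unadjusted p under 0.05. Klf6 had 1.15 ± 0.43 (SE) with an adjusted p of 0.233 in edgeR and 0.49 ± 0.20 without GXNI 3. DESeq2 called Klf6 higher, beside 3.55% of 27966 genes. Klf5, which the filter removed, had 1.67 ± 0.62 without the filter, and was called (1.99) when GXNI 1 was left out, beside 10.7% of genes called higher. With the labels exchanged 1 member was called, Klf4 (0.90 ± 0.25, adjusted p = 0.187 in edgeR), beside 2.16% of genes called higher, and without GXNI 3 it was again Klf4 (1.03 ± 0.27), beside 2.11%. Those Klf4 values include GXNI 1, the library at 113.8 CPM.

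Among the other 8 KLF genes, 5 could be tested. Klf16, a GC-box factor, was the 1 family gene called in all 6 libraries against sham, higher by 0.96 ± 0.28 (SE) on the log2 scale with an adjusted p of 0.0896 in edgeR. It had 5.64 to 6.87 CPM in sham and 8.37 to 18.4 CPM in the 6 libraries, with GXNI 3 and MIRI 3 highest. Klf12, a repressor, had 11.9 to 17.3 CPM in sham, 6.09, 14.4 and 6.22 CPM in MIRI and 14.7, 9.02 and 5.52 CPM in GXNI hearts. Its log2 fold change was -0.65 ± 0.34 and it was called lower (-1.30 ± 0.17) in MIRI against sham with the labels exchanged. Klf3 (-0.09 ± 0.14) and Klf11 (0.31 ± 0.15) were not called, and Klf1, Klf8, Klf14 and Klf17 stayed under 1 CPM in every library. Of the related Sp factors 4 could be tested and 1, Sp4, was called lower (-0.66 ± 0.20), a call lost with both doubtful libraries left out.

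Across the 6 ischemia-reperfusion libraries several members varied together, which is given as a description since the points share libraries and cell mixtures. Klf9 and Klf15 had a Pearson r of 0.959 on log2 CPM, Klf2 and Klf4 0.930, and Klf6 and Klf7 0.917, while Klf5 and Klf15 had -0.985. Klf13 was near 0 with Klf6, Klf7 and Klf9, at -0.012, -0.041 and -0.066. The ratio of Klf6 to Klf15 CPM, chosen after its values were seen, was 0.643 to 1.16 in sham and 0.901 to 1.31 in MIRI 2, GXNI 1 and GXNI 2. It was 4.52 in MIRI 1, 7.67 in MIRI 3 and 9.98 in GXNI 3.

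Of 15207 genes over all 9 libraries, the gene most like Klf5 was Actb, which encodes beta-actin, with an r of 0.9975, followed by Myl6 and Mcam. The nearest to Klf6 was Stk17b (0.9891), to Klf7 Fam208b (0.9945) and to Klf9 Tpd52l1 (0.9867). For Klf2 it was Zxdc (0.9424), for Klf4 Lhfp (0.9609), for Klf10 Pdzd4 (0.9208) and for Klf13 Dnah6 (0.9573). These are the highest of 15207 values each, over 9 points that share the differences between libraries, and are given as a description.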

How the data were processed

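The deposited counts are whole numbers of reads per gene, which the authors made with HISAT2 and featureCounts (Subread) on mm10, per the labels. Versions, annotation and strand setting are not given in the sources used here. Of 54532 identifiers, 54409 were paired with GENCODE M21 symbols and 123 were not. Columns of other samples numbered 0. Each comparison was fitted in edgeR 4.0.16 (R 4.3.3) with TMM factors, its default filter and the quasi-likelihood F test, on the libraries compared. CPM used TMM factors over 9 libraries. SE is the log2 fold change divided by the root of F. Adjusted p are Benjamini-Hochberg over all genes tested. Promoters and 250-base windows came from RefSeq.

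Members and lists were chosen with earlier results of these data known. All members were described, and at most 4 genes of a list by lowest p in the 6 against 3 comparison, plus Nr3c1, Mapk7, Nos3, Thbd, Kcnip2, Klf3 and Klf11. Dbp, Zbtb16, Tsc22d3, Fkbp5 and the genes of the cardiomyocyte list were added after their values were seen. For each member the genes of highest correlation were taken. Some genes are not reported here. Alternatives were DESeq2 1.42.0, RLE factors, no filter, all 9 libraries in 1 fit, a replicate block, an adjusted p of at most 0.05, each library left out, and the 2 doubtful libraries exchanged or left out. Fits were tested on simulated counts.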

Additional observations from a re-analysis of the deposited data

Results flagged for a closer look

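Klf4 in GXNI 1, at 113.8 CPM, stood apart from the other 5 ischemia-reperfusion libraries, which had 40.8 to 64.0 CPM. The gap to the next library was 0.682 of the whole range, above Dixon's critical value of 0.625 for 6 samples. The highest and lowest library of each of the 9 members was examined in this way, and chance flags about 1 group in 20. GXNI 1 also had the highest Klf2, at 93.6 CPM, and the highest summed mesothelial markers, at 76.1 CPM. Their part in the Klf4 value was not tested.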

How the results depend on the processing

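Direction and side of the threshold held for most values, and the changes below had no cause that was tested unless the alternative itself shows it. Counts are given as higher and lower, for all 6 ischemia-reperfusion libraries against sham, MIRI against sham, GXNI against MIRI and GXNI against sham, in that order. In the report 840 and 434, 900 and 413, 0 and 3, and 392 and 226 genes were called. With an adjusted p of at most 0.05 the counts were 4 and 5, 2 and 0, 0 and 0, and 0 and 0. DESeq2 gave 1519 and 677, 1491 and 760, 4 and 7, and 994 and 407, and called 2 members in the first, 1 in the second and 1 in the last comparison, all higher. Without the filter on low counts there were 1228 and 656, 1603 and 803, 4 and 6, and 999 and 426 genes, with 2, 2, 0 and 1 members higher. All 9 libraries in 1 fit, which was not run for all 6 against sham, gave 535 and 265, 1 and 8, and 299 and 142 in the other 3 comparisons.

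With the labels of MIRI 2 and GXNI 3 exchanged, MIRI against sham gave 2848 and 2462 genes, with 3 members higher and 2 lower. GXNI against MIRI gave 1264 and 1575 genes, with 2 members higher and 3 lower, and GXNI against sham gave 1 member higher. There Klf7 (-0.91) and Klf10 (-0.36) turned sign in GXNI against MIRI, as did Klf15 (0.053) in GXNI against sham. Without both libraries GXNI against MIRI gave 228 and 520 genes, with 1 member in each direction, and Klf7 (-0.64) and Klf10 (-0.070) again turned.

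Leaving out each library in turn moved the counts of called genes from 254 to 1466 higher and 209 to 858 lower for all 6 libraries against sham, from 340 to 2571 and 174 to 2021 for MIRI against sham, from 0 to 8 and 0 to 9 for GXNI against MIRI, and from 83 to 1603 and 90 to 1062 for GXNI against sham. Members called higher ranged from 0 to 2, 0 to 3, 0 and 0 to 1, and members called lower reached 2 in MIRI against sham only, without MIRI 2. The largest counts came without MIRI 2, GXNI 1 or GXNI 3. Fold changes that turned sign under these omissions, none of them called, ranged in GXNI against MIRI from -0.053 to 0.74 (Klf4), -0.88 to 0.29 (Klf5), -0.69 to 0.26 (Klf6), -0.39 to 0.38 (Klf7), -0.22 to 0.42 (Klf9), -0.019 to 0.086 (Klf13) and -0.21 to 0.86 (Klf15). Klf2 ranged from -0.091 to 0.27 for all 6 libraries against sham, -0.31 to 0.062 for MIRI against sham and -0.014 to 0.47 for GXNI against sham, Klf10 from -0.15 to 0.44 for MIRI against sham, and Klf15 from -0.81 to 0.036 for GXNI against sham.

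The labels number the mice 1 to 3 in each group, but the animals differ. Deviations from the group means of MIRI and GXNI libraries with the same number had an r of -0.443, 0.126 and 0.701. Pairs with sham libraries had -0.084 to 0.119. The means include MIRI 2 and GXNI 3, so these values cannot decide whether the numbers pair the mice. The replicate block gave 1 member higher, Klf5 (1.74), in all 6 libraries against sham, and 2 and 1 genes called in GXNI against MIRI. At 17119454 to 22811295 counts a library, Klf5 at 3 to 5 counts in sham was the only member limited by depth.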
